A study of Homo sapiens with 9 samples.

Results

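Long intergenic non-coding RNA genes that carry a LINC symbol were followed in nuclear and cytoplasmic RNA of HEK293 cells after WTAP/KIAA1429 RNAi. A gene was counted as a LINC gene when its symbol was LINC followed by digits with no -AS suffix. The members were chosen by their read counts, a gene being kept when its summed estimated counts reached 10 in at least 3 of the 9 samples. Of 2107 LINC genes listed, 227 met this rule, under 226 symbols because LINC01605 had 2 gene records, and 16106 genes of any kind met the same count rule. A gene read almost only in nuclei could thus enter through its nuclear samples alone.

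LINC symbols are given to long non-coding RNA genes that lie between protein-coding genes and have no more telling name. Such RNAs are transcribed by RNA polymerase II, are often spliced and polyadenylated, and are typically expressed at low levels. Many stay near chromatin or are degraded in the nucleus by the RNA exosome, while some are exported and accumulate in the cytoplasm. WTAP and KIAA1429 (VIRMA, the Virilizer homologue) are subunits of the complex that deposits N6-methyladenosine (m6A) on nascent RNA, usually at a GGACT-like sequence.

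HEK293 is a line of human embryonic kidney cells. Cells received either control siRNA or siRNAs against both WTAP and KIAA1429, with a repeat transfection before harvest, and were separated into nuclear and cytoplasmic fractions. Nuclear RNA came from 3 control and 3 WTAP/KIAA1429 RNAi samples, and cytoplasmic RNA from 1 control sample, replicate 2, and from RNAi replicates 1 and 2. Libraries were prepared from polyadenylated RNA with the Lexogen SENSE kit. The replicate numbers are not tied in the labels to separate cultures, so p-values measure only the spread between these samples. The control cytoplasm has no replicate, and its spread was taken from the other groups in the fit.

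Estimated counts summed to between 11627403 and 19036141 per sample, and 3 counts corresponded to between 0.19 and 0.303 counts-per-million (CPM). Replicates of a group correlated at 0.9773 to 0.99 across all genes tested and at 0.948 to 0.97 across the LINC genes, on log2 CPM. Both siRNA targets were lower after RNAi, WTAP by 0.83 and VIRMA by 1.08 on the log2 scale in the nucleus, with adjusted p of 0.0169 and 0.0314. Of 7 RNAs known as nuclear, such as MALAT1 and NEAT1, 6 were testable and all 6 were higher in the nuclear fraction in both siRNA conditions. Of 7 listed as cytoplasmic, 4 were lower in the nuclei than in the cytoplasm of RNAi cells and 3 in control cells, while the mitochondrial transcripts MT-CO1 and MT-CYB were higher in both. Of the HEK293 marker genes listed, 5 of 6 were tested, NEFL having no row, while the blood and liver genes CD3E, HBB and ALB had at most 1 count in any sample. The collagen gene COL1A1 was read in all 4 groups, at a mean TPM of 12.3 to 15.7.

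GGACT sequences of LINC genes on which the comparisons turn are shown first, because the depleted complex methylates RNA and no methylation was measured in these samples. Each line gives the GGACT nearest the 3′ end of the leading transcript, as a window of 30 bases within 1 exon. Windows are read 5′ to 3′ from the GRCh37 (hg19) reference with GGACT in capitals. The last exon given for LINC00641 is its only exon. The first 3 genes were lower in RNAi cytoplasm or had a changed nuclear/cytoplasmic ratio, the next 4 were raised in RNAi nuclei, LINC01547 was lowered there, and LINC02604 and LINC02210 were among the most abundant LINC RNAs.
LINC00641, chr14:21670741-21670770, minus strand, last exon: tccaaccacattGGACTttgttcctcttac
LINC01016, chr6:33857377-33857406, minus strand, last exon: cctcaggagctgGGACTcttctattttcta
LINC00680, chr6:58273073-58273102, minus strand, last exon: gacagttctttgGGACTtttgggacgcagc
LINC00887, chr3:194023770-194023799, minus strand, not the last exon: caaagaatccaaGGACTtgtgctggggctg
LINC01165, chr10:134335346-134335375, minus strand, its only exon: ctttggcagcagGGACTcaggagggagaag
LINC01252, chr12:11716952-11716981, plus strand, last exon: ctgattcccatgGGACTtcttattacccaa
LINC01355, chr1:23612638-23612667, minus strand, its only exon: tacttttaccaaGGACTagcctacaggttc
LINC01547, chr21:46353166-46353195, minus strand, last exon: ctaggtcactggGGACTccggcagcacatt
LINC02604, chr7:66368991-66369020, plus strand, its only exon: tctccaggcccaGGACTtcctcaagtcggc
LINC02210, chr17:43714077-43714106, plus strand, last exon: gagttggagcggGGACTgagttcagctgtt

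A GGACT was present in the leading transcript of 166 of the 227 LINC genes (73.1%), against 69.6% of other long non-coding RNA (lncRNA) genes and 78.7% of all genes tested. The LINC transcripts held 0.95 GGACT per kilobase and all genes 1.01, while the reverse complement AGTCC, searched on the same strand, came to 0.86 and 0.87 per kilobase. The sequence searched had the length of the quantified transcript in 153 of the 227 LINC genes and in 8565 of the 16181 genes tested. Among those 153, 74.5% held a GGACT, at 0.94 per kilobase. The letters mark a motif and not a methylated site. The leading transcripts of LINC01001, LINC02381 and LINC02449 held no GGACT.

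The 227 genes were checked against the word intergenic and against their annotation. Of these, 223 were annotated as lncRNA genes, and 195 overlapped no protein-coding gene. Among those 195 the median distance to the nearest coding gene was 27142 nucleotides. A further 15 overlapped a coding gene on the same strand and 17 on the opposite strand. For 10 members an exon lay on a coding exon of the same strand, among them LINC00339, LINC01089 beside RHOF, LINC01359 with JAK1 and LINC02210 with LINC02210-CRHR1, so their counts and those of the coding gene are uncertain. The median length of the leading transcript was 1369 nucleotides, against 1850 over all genes tested, and 27 members had a single exon, 70 had 2 and 130 had 3 or more.

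Sequence was shared at 98% identity with transcripts of other genes over more than 50% of the length in 11 members. LINC01001 was shared along its whole length with copies of other genes, and LINC01106 and LINC01123 matched each other, so the division of reads between such copies is uncertain. No such sequence was found in 191 members.

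The count rule admitted 216 of the 227 genes on their nuclear samples alone, and 86 reached 10 counts in no cytoplasmic sample, whereas each member reached 10 in at least 1 nuclear sample. The genes nearest the limit had third-largest counts of 10 (LINC00470, LINC00449 and LINC00328-2P) inside and of 9.99 (LINC01004), 9.96 (LINC00907) and 9.9 (LINC01356) outside. Of the 1880 LINC genes left out, 835 had no count in any sample.

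LINC RNAs were scarce as a whole, and a few carried much of the signal. The median LINC gene had a mean of 1.43 transcripts-per-million (TPM, a level per transcript length), against 5.7 over all genes tested. A mean above 10 TPM was seen for 15 LINC genes, while 89 were below 1 TPM. The 8 most abundant held 34.4% of the summed LINC TPM.

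LINC02381, which lies at chr12:54519803-54541269 across the opposite strand of the uracil-DNA glycosylase gene SMUG1, was the most abundant member. Its level was 100.2 TPM in control cytoplasm and 108 and 104 TPM in RNAi cytoplasm. In nuclei it reached 61.2, 75.1 and 68.8 TPM with control siRNA and 59.9, 80.5 and 71.8 TPM with RNAi. The 3 cytoplasmic samples were thus above the 6 nuclear samples. LINC02210, annotated as a transcribed unitary pseudogene, had 43.0 TPM in control cytoplasm, 37.7 and 31.4 in RNAi cytoplasm, 63.4, 73.0 and 60.8 in control nuclei and 77.5, 84.4 and 83.0 in RNAi nuclei. Its nuclear and cytoplasmic samples did not overlap, and neither did its 2 groups of nuclei. The transcript that led LINC02210 held 47.8% to 49.2% of the gene's TPM in the cytoplasmic samples and 26.6% to 34.6% in the nuclear ones.

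LINC02604, a single-exon transcript of 3441 nucleotides, had 14.1 TPM in control cytoplasm, 11.6 and 7.54 in RNAi cytoplasm, 30.1, 31.0 and 33.3 in control nuclei and 42.0, 38.6 and 36.4 in RNAi nuclei. LINC00674, annotated as a pseudogene with a leading transcript of 160 nucleotides, was among the 8 most abundant by TPM but had only 0 to 48 counts per sample. Of its length, 66.2% is shared with another gene, so its counts are uncertain. It was listed with no count in 2 of the 3 RNAi nuclear samples and with 12 in the remaining one.

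Summed over members, LINC reads made up a larger share of the nuclear than of the cytoplasmic libraries, and were highest in RNAi nuclei. The control cytoplasm held 866.3 LINC reads as CPM of matched reads (exact binomial 95% interval 851.9 to 881, counting error only). RNAi cytoplasm held 750.3 ± 64 (SD, n = 2), control nuclei 1157 ± 53.9 (SD, n = 3) and RNAi nuclei 1393 ± 25.2 (SD, n = 3). The RNAi nuclei, at 1374 to 1422, lay above the control nuclei, at 1103 to 1211. The order was the same without the 8 most abundant members, an alternative chosen after seeing the data, with 956.5 ± 10.9 in RNAi nuclei and 799.3 ± 43.9 in control nuclei (SD, n = 3 each). In these bulk samples fewer cells with an RNA and less of it per cell cannot be told apart, and each fraction was scaled to its own total, so shares are not absolute amounts.

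**Figure D1:**
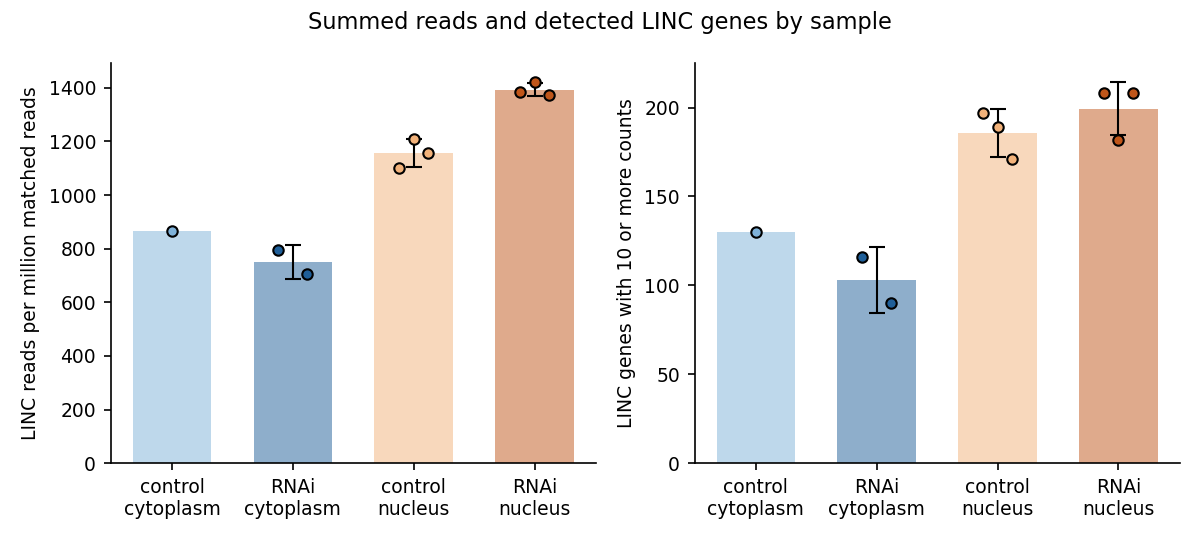
Left, LINC reads as CPM of matched reads, and right, the number of the 227 LINC genes with 10 or more counts, for the 4 groups (bars, means; error bars, SD; points, samples; the control cytoplasm is 1 sample). RNAi nuclei at 1374 to 1422 lie above control nuclei at 1103 to 1211, and the cytoplasmic samples lie at 705 to 866.3.

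To compare the fractions, nuclear and cytoplasmic samples were contrasted within each siRNA condition. In both, more LINC genes were called higher in the nucleus than lower, relative to the total of each fraction. In RNAi cells 142 of the 227 LINC genes were higher in the nucleus and 20 lower, that is 62.6% and 8.81%, where 32.9% and 24.9% of all genes tested were called. In control cells, with 1 cytoplasmic sample, 115 were higher and 9 lower, or 50.7% and 3.96% against 28.0% and 22.7% of all genes. A gene was called at a false discovery rate under 0.1 and a log2 fold change beyond 0.5 (edgeR quasi-likelihood test, Benjamini-Hochberg adjustment over 16181 genes), and adjusted p-values throughout are of this kind.

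The median LINC log2 nuclear/cytoplasmic fold change was 1.19 in RNAi cells and 1.10 in control cells, against 0.04 over all genes in both. Setting genes absent from a cytoplasm to a bound of 3 counts over the group could not move these medians. The lowest such bound was 2.48 in RNAi cells and 1.82 in control cells on the log2 scale, above both medians. Other lncRNA genes had similar medians, 1.37 and 1.16, and 61.9% were called higher in RNAi cells. Protein-coding genes had medians of -0.11 and -0.10. Since the count rule let genes in through their nuclear samples, genes with 10 or more in every sample were also fitted alone. Of the 82 LINC genes that remained, 40 were higher in RNAi nuclei and 11 lower (48.8% and 13.4%, against 27.8% and 21.0% of all such genes). In control cells 31 were higher and 9 lower (37.8% and 11.0%, against 24.1% and 24.8%).

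The 2 conditions share no samples. In both of them 107 LINC genes were called higher in the nucleus (47.1%, against 21.3% of all genes) and 8 lower (3.52%, against 14% of all genes), and none was called in opposite directions. A further 35 were called higher in RNAi cells and not in control cells (15.4%, against 9.84%), which does not show a difference between the conditions, and the ratio contrast that tests it called 6 LINC genes upward. The sign was the same in both conditions for 201 of the 227 (88.5%, against 78.1%). Across all 9 samples, 122 LINC genes had every nuclear value above every cytoplasmic value (53.7%, against 26.7% of all genes). Another 14 had every nuclear value below (6.17%, against 21.7%). The count rule admitted 216 of the 227 on nuclear samples alone, so part of these shares may come from the rule. These joint counts were not repeated among genes with 10 in every sample.

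**Figure D2:**
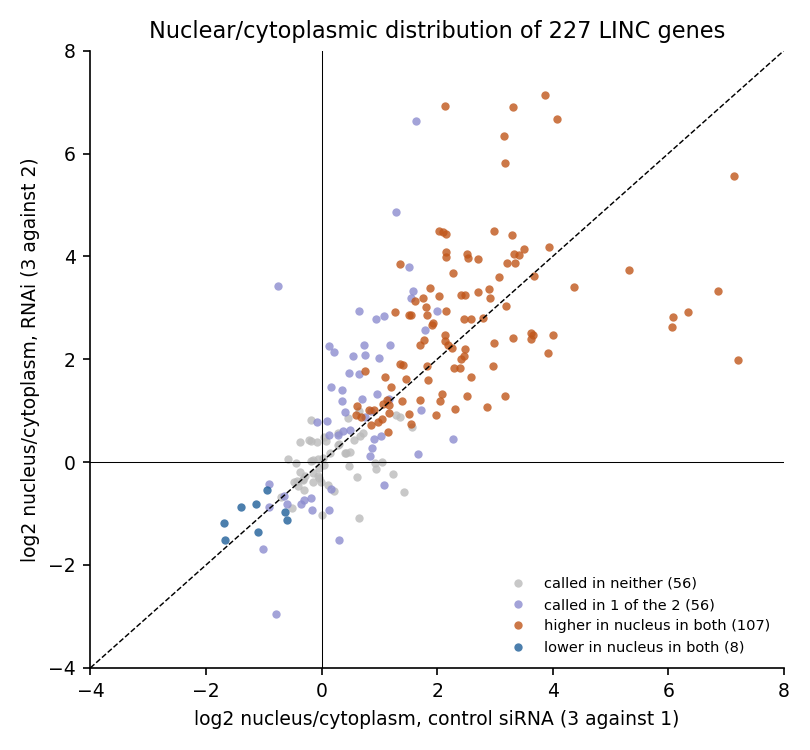
Each point is 1 of the 227 LINC genes, placed by its log2 nuclear/cytoplasmic fold change in control cells (horizontal, 3 samples against 1) and in RNAi cells (vertical, 3 against 2), with equality dashed. Most points lie in the upper right, with 107 called higher in the nucleus in both conditions and 8 called lower in both, and the points at the far ends are genes with few or no cytoplasmic counts.

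Several LINC RNAs were hardly read outside the nucleus. LINC01355, a single-exon transcript of 5444 nucleotides near the HNRNPR gene, had 43, 52 and 36 counts in control nuclei and 73, 67 and 77 in RNAi nuclei, but 3 in control cytoplasm and 1 and 0 in RNAi cytoplasm. It was called higher in the nucleus in RNAi and control cells (adjusted p of 4.09e-06 and 0.000159), but these cytoplasmic counts are too few to size the difference, the fitted log2 value in RNAi cells going from 6.68 to 9.21 without RNAi cytoplasm 1. LINC00381, LINC02025, LINC02800, LINC00106 and LINC01653 had no count in either RNAi cytoplasmic sample. Against a limit of 3 counts over that group, 0.136 CPM, their mean in RNAi nuclei was at least 9.92-fold, 8.39-fold, 8.35-fold, 6.72-fold and 5.57-fold higher. These bounds take the nuclear mean as exact, without its counting error. LINC01355 and these genes met the count rule through nuclear samples alone, so a higher nuclear value was built into their choice. The counts of LINC00106 are uncertain, since its sequence is shared in full with a second annotated copy.

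In control cells 6 LINC genes had no count in the cytoplasmic sample. Against its limit of 3 counts, 0.183 CPM, LINC01341 was at least 7.63-fold higher in the control nuclei, LINC00342 at least 7.3-fold and LINC02263 at least 5.91-fold. LINC02225, LINC00458 and LINC01531 were higher there by at least 4.21-fold, 3.54-fold and 3.53-fold. These 6 genes also met the count rule through nuclear samples alone, and their bounds likewise take the nuclear mean as exact. LINC00458 is an RNA known from pluripotent stem cells.

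LINC00173 and LINC00174 were LINC RNAs of higher level that were called higher in the nucleus. LINC00173 had 1.34 normalised CPM in control cytoplasm, 2.1 and 1.53 in RNAi cytoplasm, 8.93, 9.95 and 9.02 in control nuclei and 16.0, 10.7 and 12.2 in RNAi nuclei. It was 6.91-fold higher in the nucleus of control cells and 7-fold in RNAi cells (adjusted p of 0.000147 and 1.16e-05), with no overlap between the fractions. LINC00174 was 3.4-fold and 5.21-fold higher (adjusted p of 0.00013 and 3.2e-06). These 2 genes were picked after their values were seen.

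A smaller group was called lower in the nucleus in both conditions, namely LINC02381, LINC00662, LINC00888, LINC01116, LINC01816, LINC02609, LINC02893 and LINC02981. In RNAi cells the call of LINC02893 held in only 4 of 9 fits without 1 sample and in 3 of 9 other fits, and that of LINC00662 was lost without RNAi cytoplasm 1. The fitted log2 value of LINC02893 was -0.22 at its smallest. LINC01116, on chromosome 2, had 3.35 normalised CPM in control cytoplasm, 2.65 and 4.92 in RNAi cytoplasm, 0.755, 1.16 and 1.24 in control nuclei and 1.25, 1.02 and 1.6 in RNAi nuclei. It was lower in the nucleus by 1.67 ± 0.41 in control and 1.51 ± 0.35 in RNAi cells on the log2 scale, the latter a difference of 0.99 without RNAi cytoplasm 2. LINC00888 had 4.5 normalised CPM in control cytoplasm and 3.58 and 4.05 in RNAi cytoplasm, above its 0.954 to 1.77 in control nuclei and 1.25 to 2.03 in RNAi nuclei. LINC02381 was 1.56-fold lower in control nuclei and 1.96-fold lower in RNAi nuclei than in the cytoplasm of the same cells (adjusted p of 0.00211 and 2.79e-05). LINC01842, LINC02749 and LINC01976 were among 12 called lower in RNAi cells and not in control cells, and none of the 3 had a called change of ratio. The call of LINC01842 was lost without RNAi cytoplasm 1 (adjusted p = 0.317).

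Called members were found at all levels and lengths. By level, 74 of the 89 LINC genes at 1 TPM or less were called higher in RNAi nuclei and none lower. Only 2 of these 89 had 10 counts in every sample, so the count rule fixed much of that share and no trend with level is read from it. In the other classes the median log2 nuclear/cytoplasmic fold change of RNAi and control cells was 0.58 and 0.57 for the 123 genes between 1 and 10 TPM, and 0.53 and 0.61 for the 15 above 10 TPM. By length, the medians in RNAi cells were 1.12 for 96 transcripts under 1000 nucleotides, 1.00 for 97 of intermediate length and 2.26 for 34 of 3000 nucleotides or more. Of these 34, 28 were called higher in the nucleus of RNAi cells and none lower, where 32.9% and 24.9% of all genes were called. Among genes with 10 counts in every sample the medians were 0.07 for 31 short, 0.15 for 38 intermediate and 0.72 for 13 long transcripts. The length classes were not set against those of other genes, so no trend particular to LINC genes is read from them.

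**Figure D3:**
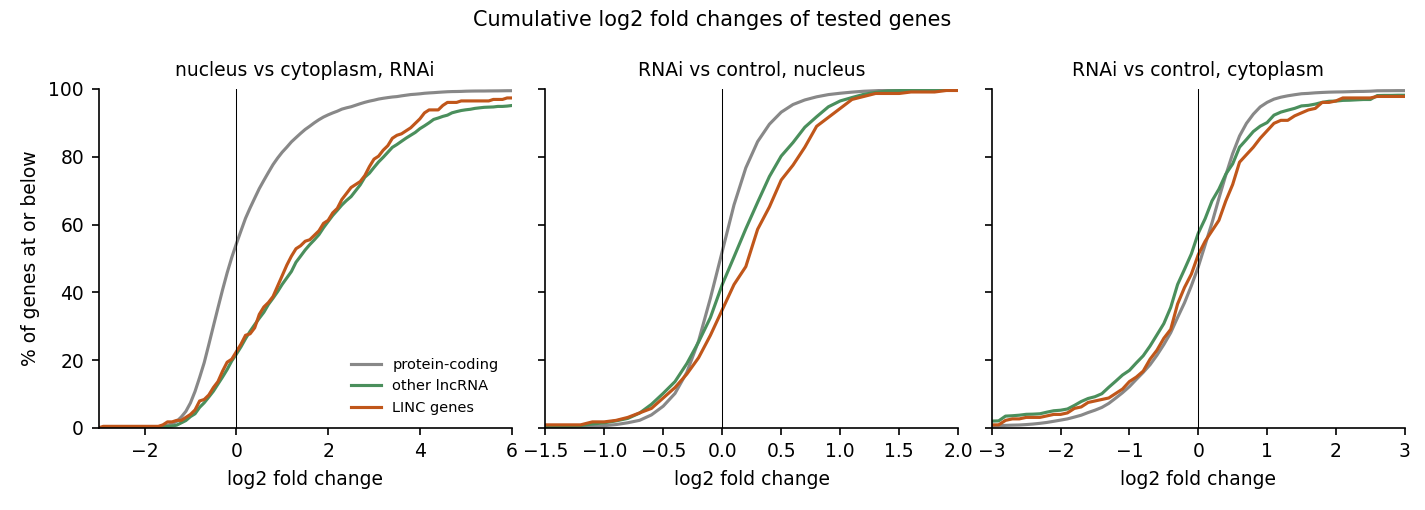
Percentage of genes (vertical) at or below each log2 fold change (horizontal) for the 227 LINC genes, 1905 other lncRNA genes and 13473 protein-coding genes, for nucleus against cytoplasm in RNAi cells (left) and for RNAi against control in the nucleus (middle) and the cytoplasm (right). The LINC curve lies to the right of the protein-coding curve on the left (medians 1.19 and -0.11) and in the middle (0.23 and -0.02), and close to it on the right (-0.01 and 0.04).

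In nuclei, WTAP/KIAA1429 RNAi raised a set of LINC RNAs and lowered few. Of the 227 LINC genes, 18 were higher in RNAi nuclei and 2 were lower, or 7.93% and 0.881%, where 2.47% and 2.42% of all genes were called. The median LINC log2 fold change was 0.23 against 0.00 over all genes and 0.09 over other lncRNA genes, of which 3.52% were called higher. All 3 RNAi nuclei lay above all 3 control nuclei for 59 LINC genes (26.0%, against 14.3% of all genes) and below them for 18 (7.93%, against 13.8%). Genes with 10 counts in every sample were also fitted alone. There 12 of 82 LINC genes were higher and 2 lower (14.6% and 2.44%, against 3.23% and 2.43%). Only 7 of the 18 genes raised in the main fit were among these 82, so the 12 include genes not called there.

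The 2 raised LINC RNAs that kept their call whichever sample was left out were LINC01128 and LINC00665. None of the 20 nuclear calls held under every other setting, LINC01128 being lost with the length offset and both limma fits and LINC00665 with limma on log2(TPM + 0.1). LINC01128, on chromosome 1 and 64477 nucleotides from SAMD11, had 16.0, 20.3 and 16.2 normalised CPM in control nuclei and 31.7, 33.2 and 32.7 in RNAi nuclei. It rose 1.86-fold (log2 0.89 ± 0.12, adjusted p = 0.0119), with no overlap between the groups. In the cytoplasm it had 17 CPM with control siRNA and 24.2 and 21.9 with RNAi, a log2 difference of 0.44 ± 0.18 that was not called (adjusted p = 0.116).

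LINC00665, from which a small peptide has been described, had 11.8, 10.7 and 11.7 normalised CPM in control nuclei and 20.5, 21.2 and 21.0 in RNAi nuclei. It rose 1.83-fold (log2 0.88 ± 0.13, adjusted p = 0.0134). Its cytoplasmic values were 12.9 with control siRNA and 13.8 and 17.7 with RNAi. LINC00265 rose 1.54-fold, from 21.9, 18.5 and 22.1 CPM in control nuclei to 34.2, 31.0 and 31.1 in RNAi nuclei (adjusted p = 0.0277).

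LINC01001 and LINC02895 rose in nuclei by 1.94-fold and 1.89-fold (adjusted p of 0.0377 and 0.035). LINC01001 had 52.7, 29.9 and 36.8 normalised CPM in control nuclei and 79.9, 81.5 and 70.2 in RNAi nuclei, and its reads are shared with copies elsewhere. LINC02895 had 13.3, 7.97 and 11.1 CPM in control nuclei and 20.9, 20.6 and 19.4 in RNAi nuclei. For both genes the RNAi nuclei were tight and the control nuclei spread widely, without overlap.

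The largest fold changes in nuclei belonged to scarce RNAs. LINC02742 had 4, 1 and 5 counts in control nuclei and 15, 12 and 14 in RNAi nuclei, a log2 rise of 2.04 ± 0.54 (adjusted p = 0.0653). LINC00887 had 7, 3 and 1 against 13, 11 and 14 counts, LINC00276 had 9, 11 and 4 against 27, 16 and 27, and LINC01165 had 7, 7 and 3 against 15, 13 and 11. LINC01252, whose GGACT lies 370 bases from its 3′ end, went from 27, 22 and 12 counts to 57, 35 and 44, a rise of 2.33-fold (adjusted p = 0.0408). The groups did not overlap for these genes, but their counts were few.

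The remaining raised genes were LINC00707, LINC00926, LINC01535, LINC02972, LINC01355, LINC00649, LINC03033 and LINC01106. The 18 rises ranged from 1.45-fold to 4.12-fold, and in each of the 18 the RNAi nuclei lay above the control nuclei. Of the 18, 14 were also called higher in the nucleus than the cytoplasm of RNAi cells, a comparison that shares the RNAi nuclear samples. That call was made for 62.6% of the LINC genes and 32.9% of all genes, so nothing is read from it. The nearest protein-coding gene was tested for 14 of the 18 raised genes, and none of these coding genes was called in the nucleus. Over all genes 2.47% were called higher and 2.42% lower, so nothing is read from 14 genes without a call. Their log2 fold changes lay between -0.46 and 0.52. ATP5PO, which LINC00649 overlaps on the opposite strand, missed only the fold limit, at -0.43 with an adjusted p of 0.0332.

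LINC01547 and LINC01521 were lowered in nuclei. LINC01547, 84 nucleotides from SLX9 on chromosome 21, had 20.1, 18.9 and 18.3 normalised CPM in control nuclei and 12.9, 13.3 and 13.1 in RNAi nuclei, and fell by 0.55 ± 0.12 on the log2 scale (adjusted p = 0.0395). LINC01521, 431 nucleotides from PATZ1, had 9.41, 8.52 and 11.0 CPM and then 5.77, 5.0 and 5.3, and fell by 0.84 ± 0.20 (adjusted p = 0.0494). It was also called lower in the cytoplasm, where it had 9.98 CPM with control siRNA and 4.44 and 7.43 with RNAi (adjusted p = 0.0842, and 0.313 without RNAi cytoplasm 1).

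The nuclear calls depended on single libraries. The 20 calls became 2 without control nucleus 3, 3 without RNAi nucleus 1, 3 without RNAi nucleus 2 and 2 without RNAi nucleus 3, when calls over all genes also dropped, for instance from 400 to 47 higher without control nucleus 3. The direction of each of the 20 held in every such fit. It could hardly have changed, since the 2 groups of nuclei did not overlap for any of the 20.

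**Figure D4:**
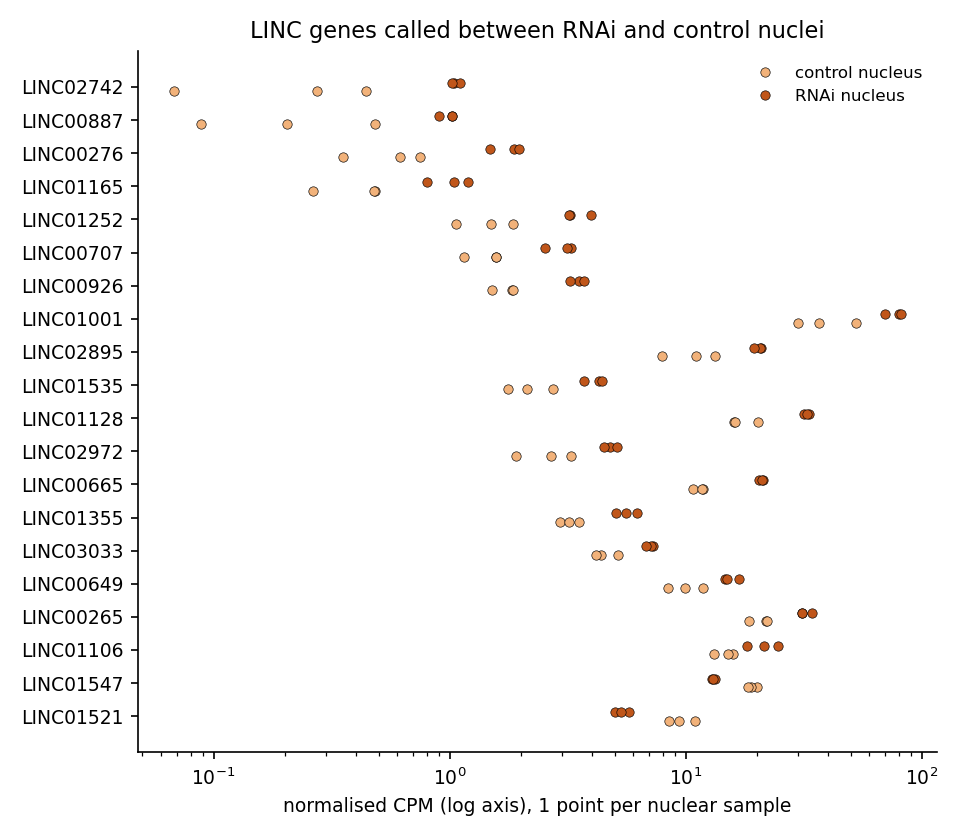
Normalised CPM (log axis) of the 20 LINC genes called between RNAi and control nuclei, with 3 control (light) and 3 RNAi (dark) nuclear samples per gene and genes ordered by fold change. The RNAi points lie to the right of the control points in the 18 raised genes and to the left in LINC01547 and LINC01521, and the 4 genes at the top lie below 2 CPM.

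In the cytoplasm, few LINC RNAs were called as changed after RNAi, in both directions. Of the 227, 6 were higher and 6 lower after RNAi, 2.64% each way, where 10.4% and 14.2% of all genes were called, and the median log2 fold change was -0.01. Members were read at lower counts than most genes, with a median of 17.8 against 139 per sample, and rested here on 2 samples against 1. Smaller differences were not detectable at this depth. With library size in place of TMM scaling, the median of all genes moved from 0.01 to -0.24 and the calls were 1 higher and 14 lower.

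LINC00641, with a leading transcript of 5425 nucleotides annotated as a retained intron and lying 2236 nucleotides from HNRNPC, was the best measured of the lowered RNAs. It had 57.7 normalised CPM in control cytoplasm and 36.5 and 32.4 in RNAi cytoplasm, while nuclei had 54.6, 53.6 and 56.8 with control siRNA and 59.0, 61.2 and 59.0 with RNAi. It fell by 0.74 ± 0.13 on the log2 scale in the cytoplasm (adjusted p = 0.00441), with a nuclear log2 fold change of 0.12 ± 0.09 that was not called.

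LINC00632, the host transcript of the circular RNA CDR1-AS, fell by 2.21 ± 0.51 in the cytoplasm (adjusted p = 0.0137). Without RNAi cytoplasm 1 this difference was 3.85 and the change of its ratio was 4.1. It had 28 counts in control cytoplasm and 7 and 1 in RNAi cytoplasm, against 108, 93 and 84 in control nuclei and 130, 81 and 117 in RNAi nuclei. LINC02895 had 69 counts in control cytoplasm and 22 and 9 in RNAi cytoplasm, and fell by 1.58 ± 0.38 (adjusted p = 0.0162), while its nuclear level rose. LINC02449 had 11, then 2 and 0 counts, and LINC00680 had 69, then 30 and 21, with adjusted p of 0.0601 and 0.0772.

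Among the raised cytoplasmic RNAs, LINC01089 (LIMT), whose exons overlap RHOF, had 6.21 normalised CPM in control cytoplasm and 13.3 and 9.95 in RNAi cytoplasm, a 1.89-fold rise (adjusted p = 0.0212). Part of its reads cannot be told from RHOF, which had a cytoplasmic log2 fold change of 0.41. LINC01569 went from 3.22 CPM to 6.15 and 6.67 (1.98-fold, adjusted p = 0.03), LINC02609 from 6.45 to 12.3 and 9.62, and LINC00910 from 5.84 to 9.81 and 8.64. LINC02986 had 6 counts and then 13 and 8, and LINC01341 had 0 and then 4 and 1, too few to give a fold.

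The study asked whether depletion of the complex shifts RNA toward the nucleus, which the change of the nuclear/cytoplasmic ratio measures directly. Few LINC genes were called by this measure. Of the 227, 6 had a higher and 3 a lower ratio after RNAi, or 2.64% and 1.32%, where 10.4% and 7.87% of all genes were called, and the median change was 0.12 on the log2 scale against -0.05. Other lncRNA genes were called in 5.41% and 1.89%. With library size in place of TMM scaling, 16 were higher and 1 lower, and the median of all genes was 0.23. This contrast uses the same samples as the others and rests on the 1 control cytoplasm. Members had a median of 17.8 counts per sample against 139 over all genes. A lower share called therefore does not show that fewer LINC RNAs changed.

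The ratio of LINC02895 rose by 2.50 ± 0.42 on the log2 scale (adjusted p = 0.00711), with higher nuclear and lower cytoplasmic values. That of LINC00632 rose by 2.46 ± 0.55 (adjusted p = 0.0196) and that of LINC00641 by 0.86 ± 0.16 (adjusted p = 0.00955), both with their called difference in the cytoplasm. These 3, and LINC01569 with a fall of 1.52 ± 0.32 (adjusted p = 0.0171), kept their call whichever sample was left out, and under the other settings in which they were tested.

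LINC02742 and LINC01016 rose by 4.17 ± 1.21 and 1.93 ± 0.68 in ratio, on small counts. LINC02742 had 7 counts in control cytoplasm and 2 and 0 in RNAi cytoplasm, and LINC01016, an RNA known from oestrogen-responsive cells, had 15 and then 3 and 4. Without RNAi cytoplasm 1 the estimate for LINC02742 reached 7.56. LINC01001 rose by 1.03 ± 0.37 and LINC00339 fell by 0.69 ± 0.23, with adjusted p of 0.0982 and 0.0742 close to the limit. The call of LINC01341 rests on 0 counts in the control cytoplasm and 5 in the RNAi cytoplasm, and no size is given for it.

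**Figure D5:**
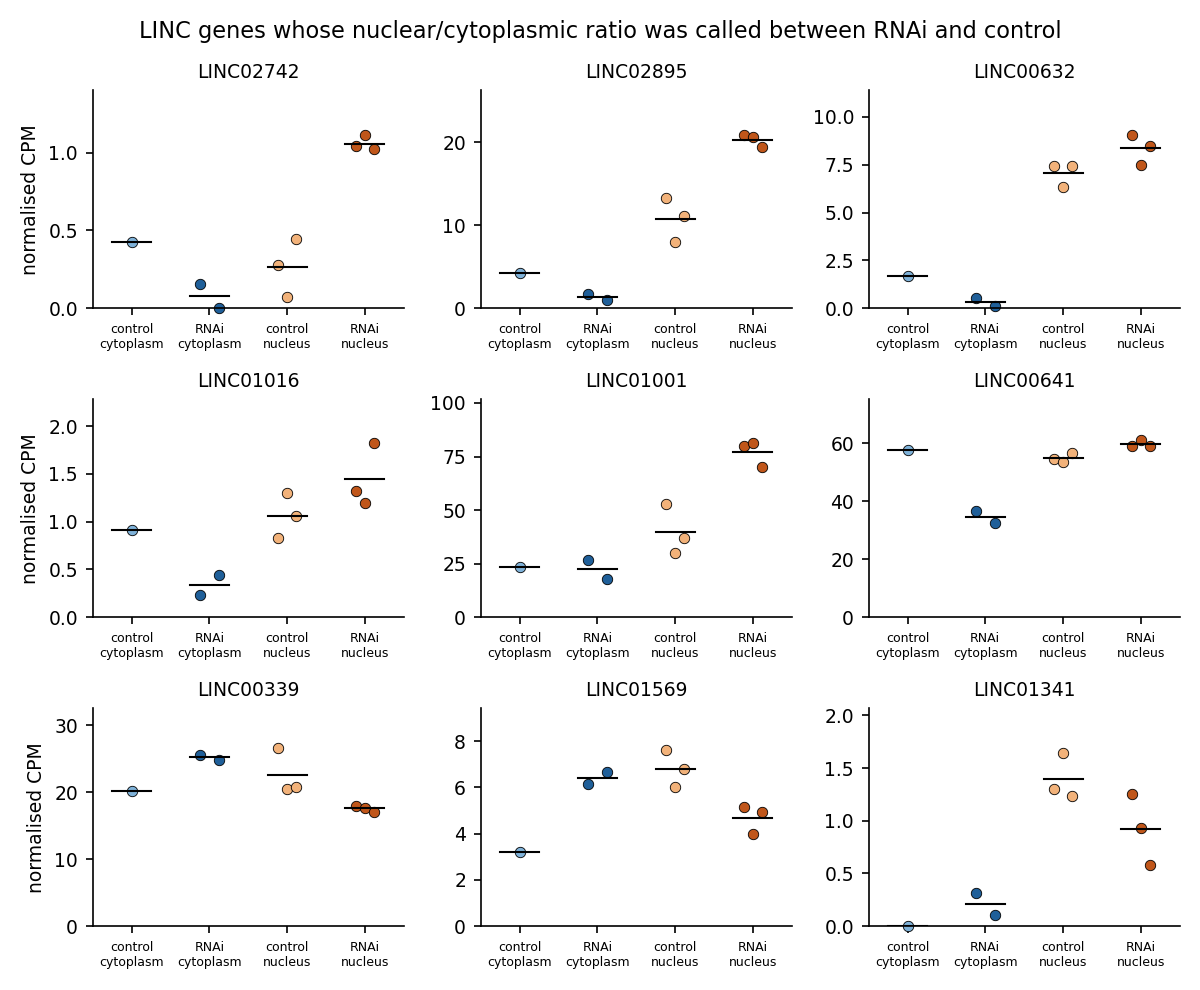
Normalised CPM per sample (points) and group means (lines) for the 9 LINC genes with a called change of the nuclear/cytoplasmic ratio, each on its own axis from 0. LINC02895, LINC00632 and LINC00641 show RNAi cytoplasm below the control cytoplasmic sample, LINC01569 shows it above, and LINC02742, LINC01016 and LINC01341 lie below 2 CPM throughout.

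The genes of nuclear RNA decay and of m6A deposition were examined in the same fit as context. Of 11 decay and retention genes tested (SRRT was listed under both of its names), 1 was higher in RNAi nuclei, 5 were lower and 1 higher in RNAi cytoplasm, and 4 rose in nuclear/cytoplasmic ratio. Over all genes the shares called were 2.47% higher in nuclei, 14.2% lower and 10.4% higher in the cytoplasm, and 10.4% higher in ratio. These 4 were DIS3, a catalytic exosome subunit (1.99 on the log2 scale), the helicase gene MTREX (1.47), ZFC3H1 of the poly(A) tail exosome targeting complex (3.44) and the cap-binding gene NCBP1 (0.57). ZFC3H1 rose by 1.03 in nuclei and fell by 2.41 in the cytoplasm, while its nuclear level went from a mean of 5.28 to 13 TPM. Of 7 m6A writer and reader genes, 2 were higher in RNAi nuclei, 3 lower and 1 higher in RNAi cytoplasm, and 3 rose in ratio, among them ZC3H13 (2.85). What part these genes have in the LINC values was not tested.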

How the data were processed

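The authors trimmed reads with cutadapt, merged lanes and quantified transcripts of the hg19 Ensembl annotation by salmon, whose version is not given in the sources used here. The deposited values were an estimated count per transcript, with no normalization between samples, and a TPM, scaled by salmon to a fixed total per sample. Deposited lengths and effective lengths, in nucleotides, were used for the leading transcripts and the length offset.

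Transcripts were assigned to genes with GENCODE version 44 mapped to GRCh37. Of 215170 transcripts, 183122 (85.1%) were matched, carrying 83.07% to 88.31% of counts. Gene values are sums over transcripts, which were made whole numbers for the count test. Levels are TPM and contrasts TMM-normalised CPM. Among genes that met the count rule, 107 that once had a LINC symbol and are now named otherwise were not members.

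The fit used edgeR 4.0.16 in R 4.3.3 on 16181 genes with at least 10 counts in at least 3 samples, with 4 groups and 5 residual degrees of freedom (biological coefficient of variation 0.1381). Of the 16181, 3 LINC genes reached the limit by rounding and were not members. Thresholds and the ratio contrast follow the study's methods. A fold change of a gene low in both groups is imprecise at this depth. The code was tested on simulated data.

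Members and lists were chosen with earlier results of these data known. Named genes were the 8 with the highest TPM, the called members with the largest changes in each contrast (up to 6 higher and 5 lower between fractions, 5 each way between siRNAs, 6 each way in ratio), and 3 on each side of the count limit. The other called members, LINC00173 and LINC00174 were named after their values were seen. Alternatives were DESeq2 1.42.0 (size factors and Wald test), library size only, other filters, a length offset, limma 3.58.1 on log2 TPM, a replicate block, a false discovery rate of 0.05 and each sample left out. Shared sequence was searched with blastn 2.17.0 over at least 100 bases. One marker gene and some sequence windows are not reported here.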

Additional observations from a re-analysis of the deposited data

Results flagged for a closer look

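For 9 LINC genes the effect of WTAP/KIAA1429 RNAi differed between nucleus and cytoplasm by the test of the difference itself, the interaction contrast of the edgeR quasi-likelihood fit. Such a difference was called upward for 10.4% and downward for 7.87% of all genes tested. The log2 difference was 2.50 for LINC02895, 2.46 for LINC00632 and 0.86 for LINC00641, all 3 with lower values in both RNAi cytoplasmic samples than in the control one. It was -1.52 for LINC01569, whose 2 RNAi cytoplasmic samples were above the control one and whose RNAi nuclei were below the control nuclei. These 4 were called in every fit that included them.

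The other 5 differences were 4.17 for LINC02742, 1.93 for LINC01016, 1.03 for LINC01001, -0.69 for LINC00339 and a fitted -5.22 for LINC01341. The last value is neither a measured fold nor a bound, since LINC01341 had 0 counts in the control cytoplasm and 4 and 1 in the RNAi cytoplasm. Of the 8 fits without 1 sample, the call held in 7 for LINC02742, in 3 for LINC01001 and for LINC01341, and in 1 for LINC01016 and for LINC00339. The control cytoplasm was 1 sample, so a peculiarity of that sample and an effect of the siRNA on the cytoplasm cannot be told apart.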

How the results depend on the processing

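Over the fits without 1 sample, the calls numbered 140 to 162 between fractions in RNAi cells, 120 to 132 in control cells, 2 to 22 between nuclei, 8 to 19 between cytoplasms and 5 to 15 for the ratio, and the sign of each called gene held. Between nuclei the sign could hardly have changed, since the 2 groups did not overlap for any of the 20 called genes. The control cytoplasm could not be left out of contrasts that use it. Between cytoplasms 19 genes were called without control nucleus 2, and for the ratio 15 without RNAi cytoplasm 1, 15 without control nucleus 1, and 5 without control nucleus 3 or without RNAi nucleus 3. With at least 10 counts in every sample, the fraction calls became 51 and 40, of 82 genes. The 20 nuclear calls became 9 with the DESeq2 Wald test and at a false discovery rate of 0.05, 6 with the length offset and with limma on log2(TPM + 1), and 0 with limma on log2(TPM + 0.1), where 33 genes were higher and 10 lower at an unadjusted p under 0.05. The 12 cytoplasmic calls became 7 with DESeq2, 6 at 0.05 and 6 with limma on log2(TPM + 1), where 0 were higher. The 9 ratio calls became 5 at 0.05, 14 with no count filter and with limma on log2(TPM + 0.1), and 17 with library size only, which moved the median of all genes from -0.05 to 0.23 and split the calls 16 higher to 1 lower, and the cytoplasmic calls 1 to 14. The causes were not tested. The rule gave 324 genes when 1 file sufficed and 81 when all 9 were required. All 7 same-numbered pairs across groups deviated together, at r of 0.043 to 0.252 (0.212, 0.118 and 0.043 between nuclei), but 2 were under 0.1. RNAi nucleus 3 correlated better with control nucleus 2 (0.077) than with control nucleus 3. The 2 RNAi cytoplasmic samples deviate as mirror images of each other, so their correlations are not separate evidence. The check does not decide whether the numbers pair the samples, and the main fit did not use them. With the replicate block the calls were 159, 118, 23, 18 and 16 for the 5 contrasts, the last moving from 9.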
